A study of Mus musculus with 6 samples.

Results

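Collagen chains were the subject, taken as every row of the deposited expression table whose symbol reads Col, a number, a and a number. The rule found 41 of the 23494 rows. By the chain they encode, 11 were fibrillar (types I, II, III, V, XI, XXIV and XXVII) and 7 belonged to basement membranes (types IV, XV and XVIII). A further 9 were FACIT chains, which sit on the surface of fibrils, 10 formed microfibrils or other networks, and 4 were transmembrane or other chains. Expression was measured by RNA sequencing in 6 libraries, 3 from rMANF mice and 3 from vehicle mice, all labelled heart. The mice were wild type C57BL/6 females that carried B16F10 tumours, a transplanted melanoma line, under the skin of the flank. Once tumours averaged about 60 mm3, rMANF mice received recombinant MANF, a secreted protein of the endoplasmic reticulum, daily by intraperitoneal injection at 2 µg/kg, and vehicle mice received PBS. The columns of vehicle mice carry names starting with IgG, while the treatment label reads vehicle. The labels call the 3 libraries of each group biological replicates, of 8 mice randomised per group.

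Collagens are secreted proteins whose chains wind around each other into helical ropes inside the endoplasmic reticulum. Types I and III form the long fibrils that give heart, skin and tendon their tensile strength, and type V starts those fibrils and limits their width. Type IV chains join into a flat net that, with laminins, nidogens and perlecan, makes the basement membrane under endothelium and epithelium and around muscle cells. Type VI forms beaded filaments between that sheet and the fibrils. Fibroblasts are known as the main source of fibrillar collagen in the heart.

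Values are TPM, which give each transcript as a length-corrected share of its library, so levels of different chains can be set side by side. Differences are rMANF minus vehicle on log2(TPM + 1), with the standard error after ±, from limma. The fit covered 12865 genes, those averaging 1 TPM or more over the libraries. Their p-values were Benjamini-Hochberg adjusted over all those genes, with a threshold of 0.05. No gene passed it, so 0% were called, and no collagen chain was called. At an unadjusted p under 0.05, 13.9% of all genes were higher and 6.63% lower with rMANF. At an adjusted p under 0.10 the shares were 1.94% higher and 0.793% lower. A second count took genes whose 3 rMANF values all lay on one side of the 3 vehicle values. By this count 18.9% of genes were higher and 9.02% lower with rMANF. The directions given here are therefore descriptions of 6 libraries, none of them past the threshold.

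The libraries differed in ways that touch several chains. The 9 cardiomyocyte markers summed to between 8.21 and 12.1 TPM in rMANF libraries and between 8.05 and 55.1 TPM in vehicle libraries, and Nppa, a defining atrial marker, reached at most 0.541 TPM, so the heart label was not borne out. Skeletal muscle markers, 11 of 11 listed, summed to between 7.04 and 19.3 TPM in rMANF libraries, against 110 TPM in vehicle replicate 1, 1217 TPM in vehicle replicate 2 and 27.6 TPM in vehicle replicate 3. Across tested genes, the Spearman correlation of vehicle replicate 3 with the rMANF libraries was 0.982 to 0.985, and with the other vehicle libraries 0.977 to 0.979.

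Of the 41 chains, 19 had a mean of at least 1 TPM and were tested. They were 6 of 11 fibrillar, 4 of 7 basement membrane, 4 of 9 FACIT, 5 of 10 microfibril and network chains, and 0 of 4 transmembrane and other chains. Among the 19, the 3 rMANF libraries all exceeded the vehicle libraries in 9 chains (47.4%, against 18.9% of all genes) and all fell short of them in 3 chains (15.8%, against 9.02%). The groups overlapped for 7 chains. Without vehicle replicates 1 and 2, 10 chains were higher (37.4% of all genes were) and 4 lower (22.4% of all genes were). At an unadjusted p under 0.05, 9 chains were higher (47.4%, against 13.9% of all genes) and 4 lower (21.1%, against 6.63%). At an adjusted p under 0.10, 2 chains were higher, Col18a1 and Col5a3, and 0 lower (1.94% and 0.793% of all genes were). The median log2 difference of the 19 chains was 0.09, against 0.04 over all tested genes. The classes parted around it, with a median of −0.42 for the fibrillar and 0.59 for the basement membrane chains. The fibrillar median was not stable, at 0.019 without vehicle replicates 1 and 2 and −0.13 under library weights. The basement membrane median was 0.39 without vehicle replicate 2. Without overlap, 2 of 6 fibrillar chains were higher and 2 lower, against 3 higher and 0 lower of 4 basement membrane chains. Without vehicle replicate 3, 4 fibrillar chains were lower (13.7% of all genes were), and with the GC trend removed 0 were higher (17.5% of all genes were).

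**Figure D1:**
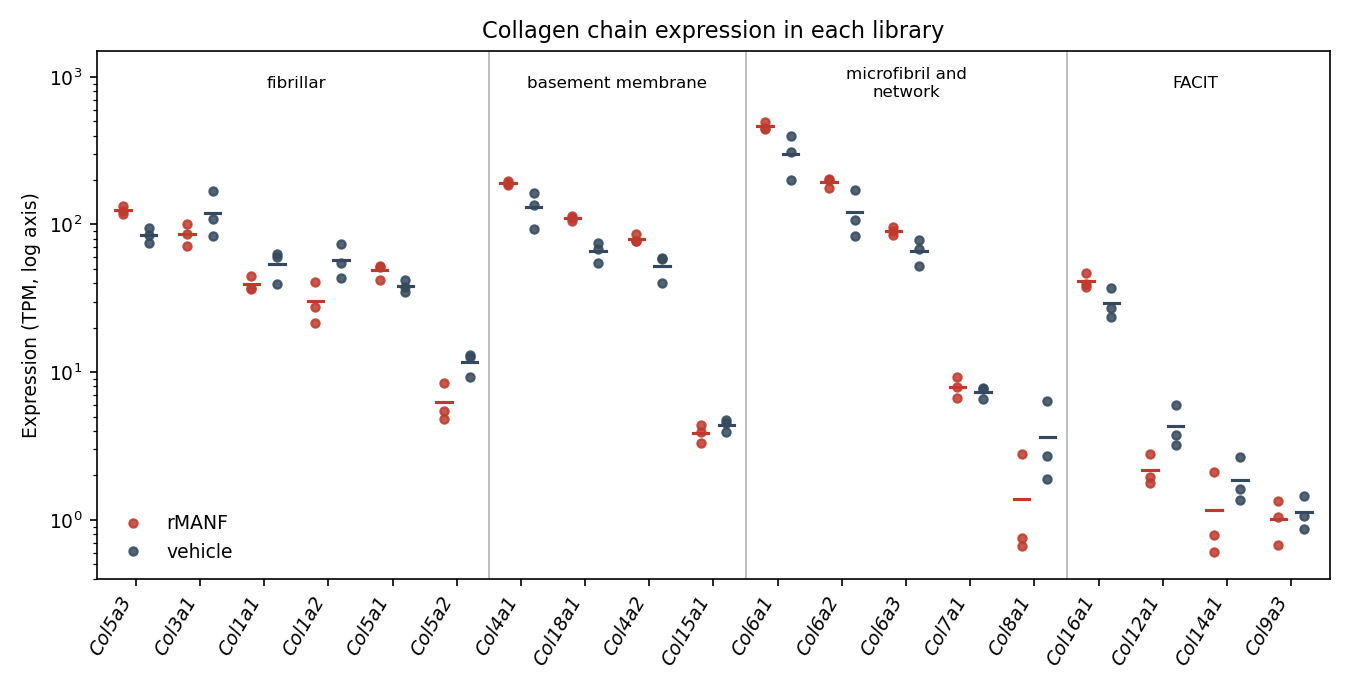
Expression of the 19 tested collagen chains in TPM on a log axis, by class. Each point is a library, bars are means of 3, and rMANF stands left of vehicle. Col1a2, Col5a2 and Col12a1 lie lower with rMANF with no overlap, while Col5a3, Col5a1, Col4a1, Col4a2, Col18a1, Col6a1, Col6a2, Col6a3 and Col16a1 lie higher.

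Promoter windows are shown for the type IV pair and Col5a3, which lay higher, for Col1a2, which lay lower, and for Col3a1, whose groups overlapped. Windows hold 250 bases before and 50 bases after the RefSeq transcription start on GRCm38.p6, and RefSeq's table had rows for 14 of the 19 tested chains. The window of Col4a2 on the plus strand (chr8:11312555-11312854) also holds the start of Col4a1, which is transcribed the other way. Its capitals mark the 22 bases that lie in both genes. In the windows of Col5a3 (minus strand, chr9:20815018-20815317), Col1a2 (plus strand, chr6:4505368-4505667) and Col3a1 (plus strand, chr1:45311288-45311587), capitals mark 3 promoter motifs on either strand. The GC box is spelled GGGCGG. The CCAAT box is spelled as it is named. The TATA box is spelled TATAAA.
Col4a2 and Col4a1: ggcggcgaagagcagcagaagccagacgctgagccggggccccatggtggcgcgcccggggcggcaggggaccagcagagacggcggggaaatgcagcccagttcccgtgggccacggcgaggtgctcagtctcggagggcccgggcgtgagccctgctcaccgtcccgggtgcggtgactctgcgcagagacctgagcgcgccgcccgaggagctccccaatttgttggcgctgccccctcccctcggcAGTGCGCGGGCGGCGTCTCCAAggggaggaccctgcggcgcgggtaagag
Col5a3: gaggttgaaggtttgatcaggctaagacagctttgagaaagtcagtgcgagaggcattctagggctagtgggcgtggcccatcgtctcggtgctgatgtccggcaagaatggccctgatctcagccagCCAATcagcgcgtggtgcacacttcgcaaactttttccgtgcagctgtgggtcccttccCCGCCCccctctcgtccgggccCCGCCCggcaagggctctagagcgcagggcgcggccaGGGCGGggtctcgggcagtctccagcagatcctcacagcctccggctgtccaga
Col1a2: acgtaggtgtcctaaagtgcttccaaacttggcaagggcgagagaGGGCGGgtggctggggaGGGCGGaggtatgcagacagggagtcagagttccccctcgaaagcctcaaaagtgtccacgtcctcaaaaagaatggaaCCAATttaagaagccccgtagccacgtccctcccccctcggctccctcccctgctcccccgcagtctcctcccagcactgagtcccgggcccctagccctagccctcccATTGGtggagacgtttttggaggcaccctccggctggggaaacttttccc
Col3a1: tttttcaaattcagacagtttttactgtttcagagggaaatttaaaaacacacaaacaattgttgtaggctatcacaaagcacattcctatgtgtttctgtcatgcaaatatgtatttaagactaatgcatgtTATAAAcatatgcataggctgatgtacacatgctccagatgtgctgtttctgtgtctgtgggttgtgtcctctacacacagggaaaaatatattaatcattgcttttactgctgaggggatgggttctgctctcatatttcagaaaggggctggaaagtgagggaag

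By exact match of these letters on both strands, the Col4a2 window held 3 GC boxes and 1 CCAAT box, the Col5a3 window 3 and 1, and the Col1a2 window 2 and 2. The Col3a1 window held neither, but had a TATA box at −117 from the start. Of 32851 mouse promoter windows of the same length, 35.7% held a GC box, 37.4% a CCAAT box and 13.6% a TATA box. The number of CpG dinucleotides was 33 in the Col4a2, 20 in the Col5a3, 13 in the Col1a2 and 0 in the Col3a1 window, against a median of 7. These matches describe the letters only.

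Type I collagen is made of Col1a1 and Col1a2 chains. Col1a2 (chromosome 6, 4504814 to 4541544) measured 21.5, 41.0 and 27.8 TPM in rMANF libraries, against 54.8, 74.0 and 43.3 TPM in vehicle libraries. Its highest rMANF value stayed under its lowest vehicle value, and the log2 difference was −0.92 ± 0.26 (limma adjusted p = 0.125). Col1a1 (chromosome 11, 94936224 to 94953042) measured 36.8, 45.0 and 37.3 TPM in rMANF libraries, against 62.9, 60.0 and 39.4 TPM in vehicle libraries. Vehicle replicate 3 lay among the rMANF libraries, so the groups overlapped, with a log2 difference of −0.41 ± 0.18 (limma adjusted p = 0.243). Without vehicle replicate 3 the Col1a1 difference was −0.62. Under library weights it was −0.14. With vehicle replicates 1 and 2 both left out it was 0.0037, while that of Col1a2 was −0.56.

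Type III collagen has a single kind of chain, Col3a1 (chromosome 1, 45311538 to 45349706). It measured 71.0, 101 and 86.2 TPM in rMANF libraries, against 167, 109 and 83.2 TPM in vehicle libraries. Vehicle replicate 1 was high, vehicle replicate 3 lay between the rMANF values, and the log2 difference of −0.43 ± 0.24 had a limma adjusted p of 0.360. Leaving out vehicle replicate 1 gave −0.16 for Col3a1, and leaving out vehicle replicate 3 gave −0.66. Under library weights it was −0.12, and with vehicle replicates 1 and 2 both left out it was 0.03.

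The 3 chains of type V collagen did not lie on the same side. Col5a2 (chromosome 1, 45374321 to 45503282), a partner of Col5a1 in the common form of type V, measured 5.43, 8.46 and 4.84 TPM in rMANF libraries, against 12.7, 13.0 and 9.23 TPM in vehicle libraries. All rMANF values lay below, with a log2 difference of −0.82 ± 0.21 (limma adjusted p = 0.112), which was −0.53 without vehicle replicates 1 and 2. Col5a1 (chromosome 2, 27886425 to 28039514) measured 52.3, 51.7 and 42.3 TPM in rMANF libraries, against 41.7, 34.7 and 37.8 TPM in vehicle libraries. All its rMANF values lay above, by a narrow margin, with a log2 difference of 0.35 ± 0.11 (limma adjusted p = 0.159). Its groups overlapped when TPM was rescaled without mitochondrially encoded and haemoglobin genes. Col5a3 (chromosome 9, 20770050 to 20815067), a chain found in some type V trimers, measured 117, 133 and 123 TPM in rMANF libraries, against 94.3, 74.4 and 85.4 TPM in vehicle libraries. It was the most abundant fibrillar chain with rMANF, and its log2 difference was 0.55 ± 0.10 (limma adjusted p = 0.0893).

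Of the basement membrane chains, the type IV pair and Col18a1 lay higher with rMANF, and Col15a1 did not part the groups. Col4a1 (chromosome 8, 11198423 to 11312826) measured 184, 196 and 189 TPM in rMANF libraries, against 164, 93.4 and 136 TPM in vehicle libraries. Every rMANF value lay above every vehicle value, with a log2 difference of 0.57 ± 0.18 (limma adjusted p = 0.152), which was 0.35 without vehicle replicate 2. Col4a2 (chromosome 8, 11312805 to 11449287), its partner in the ubiquitous type IV net, measured 77.0, 86.3 and 76.7 TPM in rMANF libraries, against 59.3, 39.9 and 58.4 TPM in vehicle libraries. Its log2 difference was 0.62 ± 0.15 (limma adjusted p = 0.111), without overlap. These neighbours start 21 bases apart on opposite strands, as the capitals of their shared window show, and the library kit does not mark strand, so reads from the 22 shared bases could be counted for either gene.

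Col18a1 (chromosome 10, 77052178 to 77166548) encodes the chain from which endostatin is cut, a fragment known to restrain vessel growth. It measured 105, 114 and 111 TPM in rMANF libraries, against 67.9, 55.1 and 75.1 TPM in vehicle libraries. All rMANF values lay above, with a log2 difference of 0.74 ± 0.12 (95% interval 0.46 to 1.01, limma adjusted p = 0.0893). Without vehicle replicates 1 and 2 it was 0.54. Col15a1 (chromosome 4, 47208161 to 47313167), the related chain of type XV, was low, at 4.36, 3.91 and 3.31 TPM in rMANF libraries, against 4.49, 3.92 and 4.75 TPM in vehicle libraries. The groups overlapped, with a log2 difference of −0.15 ± 0.14 and a 95% interval of −0.49 to 0.18 (limma adjusted p = 0.596). It was −0.25 without vehicle replicates 1 and 2, and −0.07 without rMANF replicate 3.

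**Figure D2:**
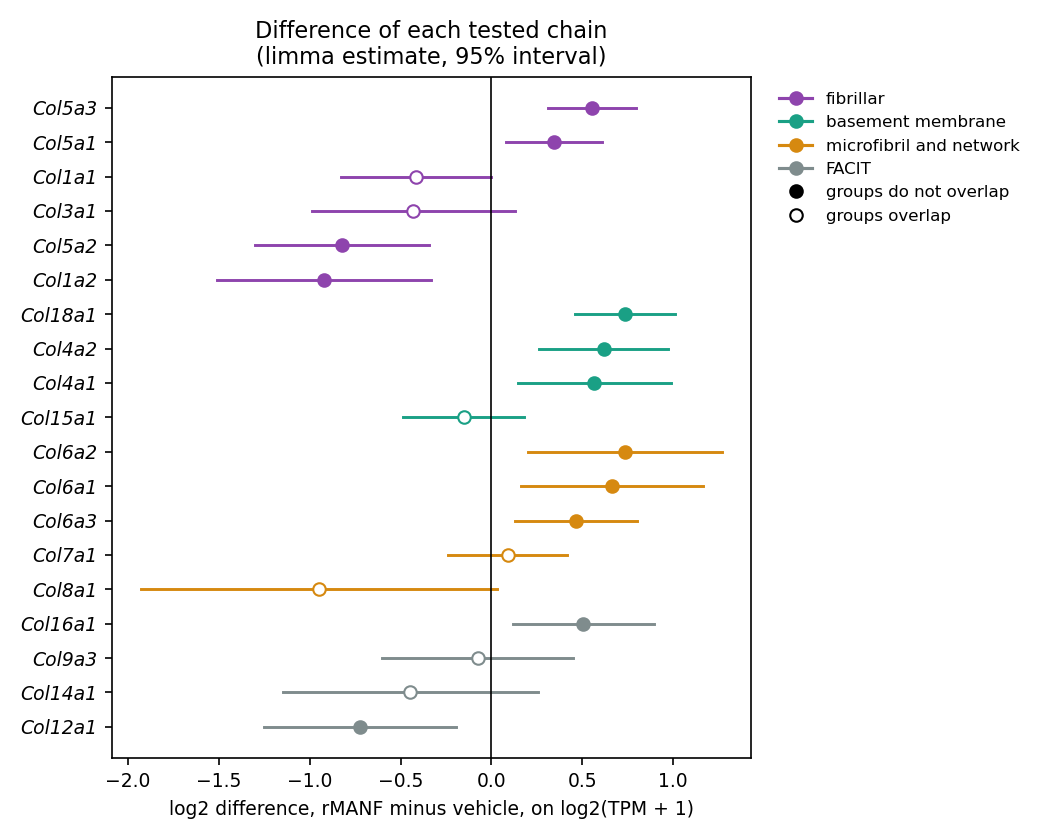
Log2 difference of each tested chain, rMANF minus vehicle, as the limma estimate with its 95% interval, coloured by class. Filled points mark groups that do not overlap. The fibrillar chains run from 0.55 for Col5a3 to −0.92 for Col1a2, while Col18a1, Col4a2 and Col4a1 lie between 0.57 and 0.74.

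Among the type VI chains was the most abundant collagen message, Col6a1. Col6a1 (chromosome 10, 76708792 to 76726168) measured 451, 492 and 442 TPM in rMANF libraries, against 397, 201 and 307 TPM in vehicle libraries. Col6a2 (chromosome 10, 76595762 to 76623630) measured 203, 200 and 178 TPM in rMANF libraries, against 172, 83.2 and 108 TPM in vehicle libraries. Col6a3 (chromosome 1, 90765923 to 90843971) measured 90.5, 96.7 and 85.2 TPM in rMANF libraries, against 78.7, 52.2 and 68.0 TPM in vehicle libraries. In each of the 3 chains every rMANF library lay above every vehicle library, and vehicle replicate 2 was lowest. The log2 differences were 0.67 ± 0.22 for Col6a1, 0.74 ± 0.23 for Col6a2 and 0.47 ± 0.15 for Col6a3 (limma adjusted p = 0.156, 0.146 and 0.146). Without vehicle replicate 2 they were 0.40 for Col6a1, 0.50 for Col6a2 and 0.31 for Col6a3. Col6a2, Col6a1 and Col18a1 follow each other on chromosome 10 on the same strand, 85.2 kb and 326.0 kb apart.

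Col16a1, a FACIT chain, measured 39.5, 46.9 and 37.7 TPM in rMANF libraries, against 36.9, 23.5 and 27.2 TPM in vehicle libraries. Its groups did not overlap, with a log2 difference of 0.51 ± 0.17 (limma adjusted p = 0.157), which was 0.27 with the GC trend removed. Col12a1, a FACIT chain that binds type I fibrils, measured 1.76, 2.79 and 1.95 TPM in rMANF libraries, against 3.77, 5.95 and 3.18 TPM in vehicle libraries. All its rMANF values lay below, with a log2 difference of −0.72 ± 0.23 (limma adjusted p = 0.148), on the same side as Col1a2. Without vehicle replicates 1 and 2 it was −0.42, and with a pseudocount of 5 TPM it was −0.37. The remaining 4 tested chains were Col7a1, Col8a1, Col9a3 and Col14a1, whose groups overlapped and whose log2 differences lay between −0.95 (Col8a1) and 0.09 (Col7a1). Without vehicle replicates 1 and 2, they were −0.38 for Col8a1, −0.19 for Col14a1, −0.040 for Col9a3 and 0.23 for Col7a1. Col8a1 was −0.56 without vehicle replicate 2, and its value depended on the pseudocount, at −1.43 with 0.1 TPM and −0.42 with 5 TPM.

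The 22 untested chains had means under 1 TPM. Col2a1, the cartilage fibril chain, came nearest, with a highest value of 1.26 TPM and a mean of 0.869 TPM. The other untested fibrillar chains peaked at 0.252 TPM for Col11a1, 0.407 TPM for Col11a2, 0.228 TPM for Col24a1 and 0.444 TPM for Col27a1. The type IV chains best known from kidney and lung nets were near 0 as well, with highest values of 0.0188 TPM for Col4a3, 0.135 TPM for Col4a4 and 0.128 TPM for Col4a5. FACIT chains peaked at 0.125 TPM for Col9a1, 0.149 TPM for Col9a2, 0.0196 TPM for Col19a1, 0.157 TPM for Col20a1 and 0.00920 TPM for Col22a1. Network chains peaked at 0.164 TPM for Col6a4, 0.0574 TPM for Col6a5, 0.0973 TPM for Col6a6, 0.622 TPM for Col8a2 and 0.0826 TPM for Col10a1. Transmembrane and other chains peaked at 0.621 TPM for Col13a1, 0.764 TPM for Col17a1, 0.207 TPM for Col23a1 and 0.258 TPM for Col28a1. Of the type IV rows analysed, Col4a1 and Col4a2 therefore held nearly all the TPM.

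Summed over all 41 chains, collagen made up 1476, 1636 and 1459 TPM in rMANF libraries, against 1435, 944 and 1100 TPM in vehicle libraries. The sums did not overlap, although vehicle replicate 1 lay close below rMANF replicate 3. Basement membrane chains summed to 370, 400 and 380 TPM in rMANF libraries, against 296, 192 and 274 TPM in vehicle libraries. Fibrillar chains summed to 306, 382 and 323 TPM in rMANF libraries, against 436, 367 and 300 TPM in vehicle libraries. Basement membrane sums were therefore higher with rMANF in every library, and fibrillar sums overlapped. As a share of all collagen TPM, fibrillar chains held 20.7% to 23.3% in rMANF libraries and 27.3% to 38.8% in vehicle libraries, without overlap. Basement membrane chains held 24.5% to 26.1% in rMANF libraries and 20.4% to 24.9% in vehicle libraries, which overlapped. Col6a1, Col6a2 and Col6a3 together held 48.2% to 50.5% in rMANF libraries and 35.6% to 45.1% in vehicle libraries.

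Ratios between chains within a library do not depend on a scale factor applied to the whole library. They overlapped between the groups for most pairs that build the same protein. Col4a1 over Col4a2 was 2.39, 2.27 and 2.47 in rMANF libraries, against 2.77, 2.34 and 2.32 in vehicle libraries. Col6a1 over Col6a2 was 2.22, 2.46 and 2.49 in rMANF libraries, against 2.31, 2.41 and 2.85 in vehicle libraries. Neither ratio parted the groups, nor did Col1a1 over Col1a2, at 1.71, 1.10 and 1.34 in rMANF libraries and 1.15, 0.811 and 0.911 in vehicle libraries. The exceptions were the type V ratios over Col5a2. Col5a3 over Col5a1 overlapped, at 2.24, 2.57 and 2.91 in rMANF libraries and 2.26, 2.14 and 2.26 in vehicle libraries. Col5a1 over Col5a2 was 9.65, 6.11 and 8.74 in rMANF libraries, against 3.29, 2.67 and 4.10 in vehicle libraries, with no overlap. Col5a3 over Col5a2 was 21.6, 15.7 and 25.4 in rMANF libraries, against 7.43, 5.72 and 9.25 in vehicle libraries. The GC content of the transcripts is 56.7% for Col5a1, 61.6% for Col5a3 and 49.6% for Col5a2, and its part in these ratios was not tested. Between the classes, Col4a1 over Col1a1 was 5.00, 4.36 and 5.08 in rMANF libraries, against 2.61, 1.56 and 3.44 in vehicle libraries, again without overlap. Col18a1 over Col15a1 was 24.0 to 33.4 in rMANF libraries and 14.0 to 15.8 in vehicle libraries.

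**Figure D3:**
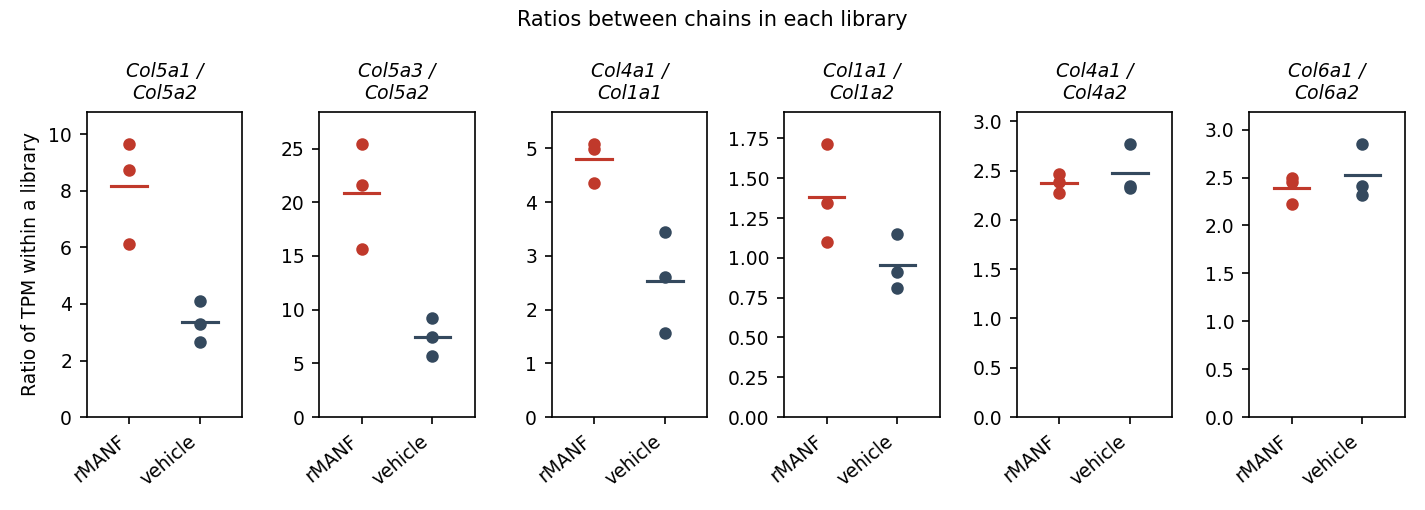
Ratio of the TPM of each named pair within a library, each panel with its own linear axis from 0. Points are libraries, bars are means of 3, and rMANF stands left of vehicle. The groups part for Col5a1 over Col5a2, Col5a3 over Col5a2 and Col4a1 over Col1a1, and overlap for Col1a1 over Col1a2, Col4a1 over Col4a2 and Col6a1 over Col6a2.

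GC content, the share of G and C in a transcript, moved with the difference over all genes. Tested genes were split into 4 bins of equal size by GC content. In the bin above 55.3% GC, 39.5% of genes were higher with rMANF without overlap, against 3.15% in the bin below 46.3%. Of the 19 chains, 12 lay in the top bin, and 8 of these 12 (66.7%) were higher without overlap. The 4 chains between 46.3% and 50.9%, Col5a2, Col8a1, Col12a1 and Col14a1, held 0 higher and 2 lower. In that bin 10.8% of all genes were higher and 11.1% lower. The 3 chains between 50.9% and 55.3% held 1 higher and 0 lower, against 22.5% and 8.11% of all genes in that bin. Across the 19 chains, which share the same libraries, Pearson's r of GC content with the log2 difference was 0.66 and Spearman's rho 0.56, given as descriptions. When each library's GC trend was removed, 4 chains remained higher without overlap, Col18a1, Col4a2, Col6a1 and Col6a3 (21.1%, against 17.5% of all genes). The lower chains remained the same 3, Col1a2, Col5a2 and Col12a1 (15.8%, against 10.5%). With the trend removed, the log2 differences were 0.52 for Col18a1, 0.40 for Col4a2, 0.42 for Col4a1, 0.30 for Col5a3 and 0.23 for Col5a1. They were −0.80 for Col5a2, −0.59 for Col1a1 and −1.08 for Col1a2. Chains of like GC content lay on both sides, Col4a1 with 57.9% and Col6a2 with 58.0% higher, Col1a2 with 58.1% lower. With the trend removed, the groups of Col4a1 and Col6a2 overlapped. The part of GC content in the higher chains beyond this removal was not tested.

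**Figure D4:**
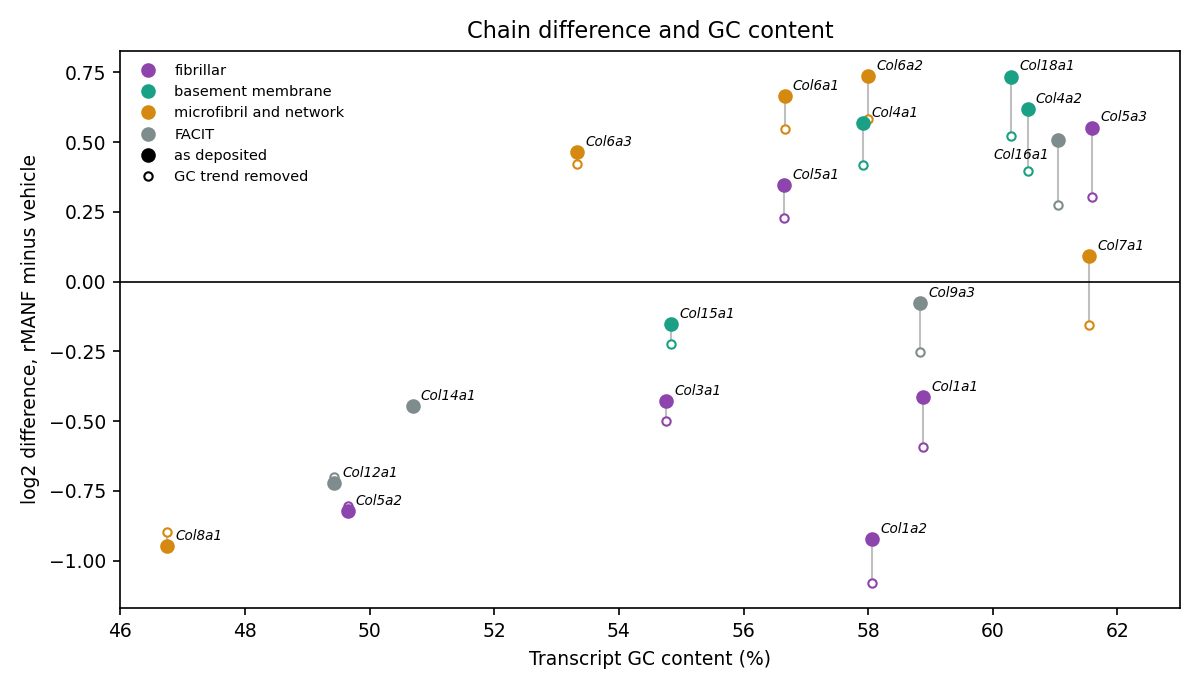
Log2 difference of each tested chain, rMANF minus vehicle, against the GC content of its transcript in percent. Filled points are the deposited values and open points those after each library's GC trend was removed, joined by a line. Col1a2 stays near −1 while Col6a2 and Col4a1, at nearly the same GC content, stay above 0. With the trend removed, the groups of Col6a2 and Col4a1 overlap.

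Among genes that fold and modify collagen, 19 of 22 listed were tested, and 7 were higher and 1 lower without overlap (36.8% and 5.26%, against 18.9% and 9.02% of all genes). At an unadjusted p under 0.05, 5 were higher and 1 lower (26.3% and 5.26%, against 13.9% and 6.63%). With the GC trend removed, 2 were higher and 2 lower without overlap, against 17.5% and 10.5% of all genes. The count was 11 higher and 2 lower without vehicle replicate 1 (32.1% and 12.9% of all genes), and 13 higher and 3 lower without vehicle replicates 1 and 2 (37.4% and 22.4% of all genes). Plod3, a lysyl hydroxylase that also adds sugars to collagen, measured 67.1, 67.6 and 66.4 TPM in rMANF libraries, against 47.7, 51.2 and 58.3 TPM in vehicle libraries. Fkbp10, a collagen chaperone, measured 66.8, 69.1 and 69.7 TPM in rMANF libraries, against 63.3, 47.3 and 42.1 TPM in vehicle libraries. P3h4, a partner of lysyl hydroxylation, measured 22.5, 25.8 and 23.1 TPM in rMANF libraries, against 21.9, 16.1 and 16.0 TPM in vehicle libraries. All 3 lay higher with rMANF, by 0.35 ± 0.09, 0.44 ± 0.14 and 0.39 ± 0.14 on the log2 scale (limma adjusted p = 0.116, 0.152 and 0.170). Plod3 differed by 0.22 with the GC trend removed, and without vehicle replicates 1 and 2 Plod3 differed by 0.20 and Fkbp10 by 0.69. Creb3l1, a transcription factor known to drive type I collagen genes, lay lower, at 1.11, 0.774 and 0.477 TPM in rMANF libraries and 1.79, 1.86 and 1.51 TPM in vehicle libraries (log2 difference −0.62 ± 0.21, limma adjusted p = 0.169). At this low level the Creb3l1 difference depended on the pseudocount, at −1.10 with 0.1 TPM and −0.22 with 5 TPM. Serpinh1, the collagen-specific chaperone HSP47, was the most abundant member. It measured 659, 664 and 656 TPM in rMANF libraries and 676, 657 and 646 TPM in vehicle libraries. The 95% interval of its log2 difference was −0.15 to 0.16. With the GC trend removed, all its rMANF values lay below all its vehicle values.

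Of the genes that trim procollagen and cross-link the finished fibre, 11 of 14 listed were tested, and 4 were higher and 1 lower without overlap (36.4% and 9.09%, against 18.9% and 9.02% of all genes). The counts were also 4 and 1 at an unadjusted p under 0.05, against 13.9% and 6.63% of all genes, but the lower gene was a different one. With the GC trend removed, 2 were higher and 2 lower without overlap, against 17.5% and 10.5% of all genes. The higher ones were the cross-linking oxidase Loxl4, the procollagen proteinase enhancer Pcolce, peroxidasin (Pxdn), which cross-links type IV collagen, and the procollagen proteinase Bmp1. Loxl4 measured 18.7, 24.0 and 17.2 TPM in rMANF libraries, against 12.6, 11.7 and 15.2 TPM in vehicle libraries (log2 difference 0.56 ± 0.15, limma adjusted p = 0.116, and 0.35 without vehicle replicates 1 and 2). Pxdn measured 112, 122 and 116 TPM in rMANF libraries, against 99.7, 74.2 and 93.7 TPM in vehicle libraries (0.39 ± 0.12, limma adjusted p = 0.138). Pcolce, the most abundant member, measured 326, 329 and 291 TPM in rMANF libraries, against 262, 242 and 270 TPM in vehicle libraries. Its log2 difference of 0.29 ± 0.08 (limma adjusted p = 0.134) was 0.10 with the GC trend removed. Bmp1 differed by 0.25 ± 0.09 (limma adjusted p = 0.186), by 0.10 with the GC trend removed and by 0.17 without vehicle replicates 1 and 2. The lower gene without overlap was Loxl3 (log2 difference −0.24 ± 0.11, limma adjusted p = 0.254). At an unadjusted p under 0.05 it was Lox, whose groups overlapped. Lox measured 4.38, 8.25 and 8.26 TPM in rMANF libraries, against 13.4, 15.2 and 7.73 TPM in vehicle libraries. Its log2 difference was −0.72 ± 0.29 (limma adjusted p = 0.214).

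Of the collagen receptors, 5 of 10 listed were tested, with 1 higher and 1 lower without overlap (1 of 5 each, against 18.9% and 9.02% of all genes). Ddr1, a receptor tyrosine kinase that collagen activates, measured 38.1, 40.4 and 36.4 TPM in rMANF libraries, against 27.2, 23.2 and 29.1 TPM in vehicle libraries. It lay higher, by 0.52 ± 0.11 on the log2 scale (limma adjusted p = 0.0893), and by 0.32 with the GC trend removed. Lair1, an inhibitory collagen receptor of leukocytes, measured 7.77, 8.93 and 5.63 TPM in rMANF libraries, against 9.20, 11.8 and 11.8 TPM in vehicle libraries. It lay lower, with a log2 difference of −0.51 ± 0.17 (limma adjusted p = 0.164). Itgb1, the beta subunit of the collagen-binding integrins, was the most abundant, at 426, 509 and 439 TPM in rMANF libraries and 465, 343 and 423 TPM in vehicle libraries, which overlapped.

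The non-collagen parts of the basement membrane lay on the same side as Col4a1, Col4a2 and Col18a1. Of 16 listed genes, 11 were tested, and 8 were higher and 0 lower without overlap (72.7% higher, against 18.9% of all genes). At an unadjusted p under 0.05, 7 were higher (63.6%, against 13.9% of all genes) and 0 lower (against 6.63%). The median log2 difference of the 11 genes was 0.37. With the GC trend removed, 5 were higher and 0 lower without overlap, against 17.5% and 10.5% of all genes. Hspg2, which encodes perlecan, measured 46.7, 48.1 and 46.4 TPM in rMANF libraries, against 31.1, 26.5 and 34.4 TPM in vehicle libraries. The log2 difference was 0.61 ± 0.11 (limma adjusted p = 0.0893), and 0.38 with the GC trend removed. The laminin chains Lamb2, Lama5 and Lamc1 averaged 25.8 ± 2.15, 23.1 ± 1.38 and 86.3 ± 3.45 TPM in rMANF libraries, against 17.6 ± 2.38, 16.1 ± 2.41 and 66.8 ± 7.24 TPM in vehicle libraries (SD, n = 3 each). All 3 lay above without overlap, by 0.54 ± 0.12, 0.50 ± 0.12 and 0.37 ± 0.10 on the log2 scale (limma adjusted p = 0.0986, 0.107 and 0.116). Lama5 differed by 0.31 without vehicle replicates 1 and 2. Lamc1 has a GC content of 49.7%, below the median of tested genes, and its difference with the GC trend removed was 0.39, against 0.35 for Lamb2 and 0.30 for Lama5. Sparc, a collagen-binding protein and the most abundant member, measured 559, 558 and 545 TPM in rMANF libraries and 647, 438 and 469 TPM in vehicle libraries, which overlapped.

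**Figure D5:**
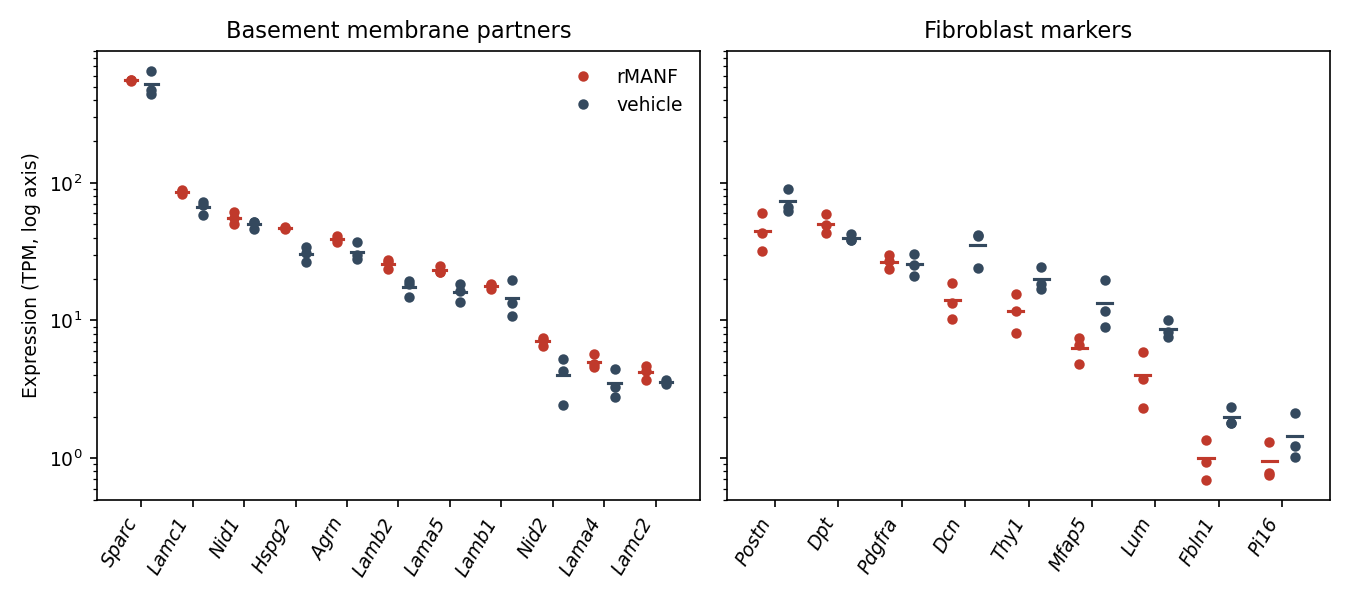
Expression in TPM on a log axis of the tested basement membrane partners (left) and fibroblast markers (right). Each point is a library, bars are means of 3, and rMANF stands left of vehicle. Of the 11 partners 8 lie higher with rMANF without overlap, and of the 9 fibroblast markers 6 lie lower and 1, Dpt, higher.

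Markers of cells that make collagen were read beside the chains. Fibroblast markers, of which 10 of 11 listed have a row, summed to between 149 and 185 TPM in rMANF libraries and between 196 and 250 TPM in vehicle libraries. Of the 9 tested, 6 were lower without overlap (66.7%, against 9.02% of all genes) and 1 higher. Dcn, which encodes the fibril-binding proteoglycan decorin, measured 13.5, 18.7 and 10.2 TPM in rMANF libraries, against 41.5, 40.9 and 24.3 TPM in vehicle libraries (log2 difference −1.27 ± 0.26, limma adjusted p = 0.0893). Without vehicle replicates 1 and 2 the Dcn difference was −0.78 (limma adjusted p = 0.444), and under library weights it was −0.95 (limma adjusted p = 0.0486). Dpt, another fibroblast marker, measured 43.1, 49.3 and 59.4 TPM in rMANF libraries, against 38.2, 38.6 and 42.7 TPM in vehicle libraries, and lay higher, although its groups overlapped under each of the 3 other scalings tried. Pdgfra overlapped. In bulk RNA, fewer cells of a type and less RNA per cell cannot be told apart. Endothelial markers, 10 of 10 listed, summed to between 175 and 200 TPM in rMANF libraries and between 148 and 174 TPM in vehicle libraries, with 3 of 10 higher and 0 lower without overlap (30.0% higher, against 18.9% of all genes). Leaving out vehicle replicate 3 gave 7 of 10 higher (25.1% of all genes). Leaving out rMANF replicate 1 gave 5 (24% of all genes), as did leaving out rMANF replicate 3 (24.1% of all genes). Without vehicle replicate 1, 4 were higher and 1 lower, against 32.1% and 12.9% of all genes. Mural cell markers, 9 of 9 listed, summed to between 106 and 115 TPM in rMANF libraries and between 114 and 128 TPM in vehicle libraries.

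Macrophage markers, 10 of 10 listed, summed to between 1855 and 2531 TPM in rMANF libraries and between 3183 and 3620 TPM in vehicle libraries, with 6 of 10 lower without overlap (60.0%, against 9.02% of all genes). It was 10 of 10 with the GC trend removed (10.5% of all genes) and 10 of 10 without vehicle replicate 1 (12.9% of all genes). Epithelial markers, 7 of 7 listed, summed to between 317 and 343 TPM in rMANF libraries and between 211 and 286 TPM in vehicle libraries, nearly all of it Krt8, while Epcam reached at most 1.21 TPM. Chondrocyte markers, 7 of 7 listed, summed to between 43.9 and 47.4 TPM in rMANF libraries and between 37.0 and 50.3 TPM in vehicle libraries, nearly all of it Sox9, while Acan reached at most 0.0111 TPM. Melanocyte markers, 3 of 7 listed, summed to between 7.44 and 10.2 TPM in rMANF libraries and between 7.96 and 12.6 TPM in vehicle libraries. Nearly all of it was Mitf, while Pmel reached at most 0.341 TPM and Sox10 at most 0.160 TPM. No listed marker with a row was at 0 in all 6 libraries. The part of any of these cell types in the collagen differences was not tested.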

How the data were processed

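Per the labels' protocols, QIAzol RNA was turned into cDNA and then into unstranded Nextera XT libraries. The tools were Salmon 0.14.1, HTSeq 0.11.0, fastp and cutadapt, and the build mm10, per the submitters' processing notes. The tool behind the final values is not named. The authors deposited log2 TPM per gene, with −9 for genes without an estimate, set to 0 TPM here. Read depth is unknown, so precision rests on the spread between libraries.

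Genes averaging 1 TPM or more were tested on log2(TPM + 1), which understates differences of low genes, with limma 3.58.1 in R 4.3.3 (two-sided, variance trend, Benjamini-Hochberg over all genes). An exact permutation test of 3 against 3 libraries cannot go below 0.1 and was not used. GENCODE M21 on GRCm38 (mm10) gave coordinates and GC content. GC content was found for 99.7% of tested genes. Alternatives were other pseudocounts (0.1 and 5 TPM), filters, 3 scalings, variance models, library weights, the replicate block, loess removal of each library's GC trend (span 0.5) and libraries left out. The procedure was tested on simulated data.

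The members, lists and naming rule were chosen with earlier results of these data known. Named were every fibrillar and basement membrane chain past the filter, other chains with a mean of at least 10 TPM or among the 4 of smallest p, untested chains by their highest value, and per list up to 4 non-overlapping genes of smallest p and the most abundant. Dcn, Dpt, Pdgfra, Nppa, Tnnt2, Tnni3, Lox, Loxl3, Krt8, Epcam, Sox9, Acan, Mitf, Pmel and Sox10 were named after their values were seen. So were the chains compared at like GC content and those named by exception.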

Additional observations from a re-analysis of the deposited data

How the results depend on the processing

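The count of all genes past the threshold, 0 here, was 737 with library weights, 3 with the replicate number as a block, 351 at an adjusted p of 0.10, 1 with the GC trend removed, 0 to 4 with each library left out, and 13 without vehicle replicates 1 and 2. The count of collagen chains, also 0, was 8 with library weights, against 5.73% of all genes. The 8 were Col16a1, Col18a1, Col4a1, Col4a2, Col5a3, Col6a1, Col6a2 and Col6a3. At an adjusted p of 0.10 the count was 2, against 2.73% of all genes. It was 0 under the replicate block and with any 1 library left out. No pairing by replicate number was seen, since deviations of like-numbered libraries correlated at −0.07, 0.03 and 0.05. Those of unlike numbers ranged from −0.15 to 0.12. With 3 libraries per group, such values cannot show that no pairing exists. Of chains without overlap, 4 were higher with the GC trend removed, against 17.5% of all genes. With each library left out, 3 to 6 were lower, against 10.5% to 14.9% of all genes. The count was 6 without rMANF replicate 2 (14.9% of all genes) and 5 without vehicle replicate 3 (13.7% of all genes). The fibrillar median of −0.42 was −0.048 with no filter, −0.13 under library weights, and 0.019 with vehicle replicates 1 and 2 both left out. The basement membrane median of 0.59 was 0.0090 with no filter and ranged between 0.39 (without vehicle replicate 2) and 0.73 with each library left out. Unfiltered medians include chains near 0 TPM. The log2 difference reversed for Col7a1 (−0.16 with the GC trend removed, alone and with the replicate block, and −0.013 to 0.20 with each library left out, negative without rMANF replicate 1) and Col9a3 (−0.19 to 0.053 with each library left out, positive without rMANF replicate 2 and without vehicle replicate 1). Without vehicle replicates 1 and 2 it reversed for Col1a1 (0.0037) and Col3a1 (0.034), with the lone vehicle library assumed to vary like the others. Other pseudocounts, scalings and variance models reversed no tested chain and none of the non-overlapping genes named per list for smallest p. Chosen after seeing the data were the removal of vehicle replicates 1 and 2, every alternative for counts without overlap, and every alternative for single chains outside the fibrillar and basement membrane classes and for single genes of the other lists. Apart from the filter and the omission of samples, the cause of these moves was not tested. No scaling moved the median of all genes by more than 0.1.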
